A study of Drosophila melanogaster with 4 samples.

Results

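The glycolysis genes described here are 10 Drosophila genes, Hex-A, Pgi, Pfk, Tpi, Gapdh1, Gapdh2, Pgk, Pglym78, Eno and Ldh, taken by name from the pathway among 13945 protein-coding genes on the 6 chromosome arms examined. All 10 symbols were found in the annotation as protein-coding genes. For each gene, the CG8924-GFP binding peaks whose summit lay inside the gene or within 2 kb of it were collected, and each summit was placed relative to the gene's transcription start sites (TSSs) and ranked by signal. The data come from 1 group, with no second condition: whole Drosophila melanogaster embryos of both sexes pooled, aged 0 to 24 h, from a transgenic line in which CG8924 carries GFP at its C terminus. Chromatin fragments of 200 to 800 bp were precipitated with an antibody to GFP in 4 biological replicates and sequenced (ChIP-seq). The embryos hold many cell types and ages, so a site bound strongly in few cells and a site bound weakly in many cannot be told apart, and binding is that of the tagged protein.

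Glycolysis breaks glucose down to pyruvate in a fixed chain of enzymes, and gives the cell ATP, NADH and carbon for building new molecules. Lactate dehydrogenase then turns pyruvate into lactate and restores NAD+, so that glycolysis can go on. In Drosophila, the genes of this pathway are known to be switched up together during embryogenesis, ahead of the rapid growth of the larva, with the nuclear receptor ERR as one known activator.

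Each of the 4 replicate lists and the pooled list hold 30000 peaks, and the thresholded list holds 7842. The thresholded list is the authors' selection for reproducibility and is the same set as the top 7842 of the pooled list by signal. Rank 1 is the highest signal in a list. Replicates 2, 3 and 4 went into the pooled and thresholded lists, and replicate 1 went into neither. A replicate supports a peak when one of its own 7842 highest-signal peaks overlaps it by at least 1 bp. Sequencing depth is unknown, and signal is on the scale of its own list, so values were compared as ranks within a list.

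Of the 10 genes, 7 had a thresholded summit inside the gene or within 2 kb, and the same 7 had one in the whole pooled list; 47.4% and 65.5% of all protein-coding genes did. These 7 genes, Hex-A, Pgi, Gapdh2, Pgk, Pglym78, Eno and Ldh, also each had a summit within 500 bp of one of their TSSs, in the thresholded list (all protein-coding genes 31.4%) and in the pooled list (49.8%). Pfk, Tpi and Gapdh1 had no pooled summit in the window. Gapdh2, Hex-A, Eno and Ldh, 4 of the 10, had a promoter summit among the 392 highest-signal thresholded peaks (5% of the list, a share chosen after the data were seen), against 2.31% of all protein-coding genes. The genes were chosen with earlier results of these data known, so no test was run on these counts.

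The sequence of 101 bp at the promoter summits of those 4 genes is shown first, because the results turn on them, followed by the strongest promoter summit of Pgk and that of Pglym78, the weakest of the 7. They are read 5′ to 3′ on the strand of the gene from the Release 6 genome of RefSeq, in the dm6 coordinates of the peak lists. Capitals mark any of 5 words of 6 bases that were found more often at summits than beside them, described further on. The number after each name is the distance from the nearest TSS of the gene itself, negative for upstream.
Gapdh2 −156 bp (chrX:15867939-15868039, plus strand): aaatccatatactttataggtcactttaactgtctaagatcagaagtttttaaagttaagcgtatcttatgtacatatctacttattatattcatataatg
Hex-A −183 bp (chrX:9585442-9585542, plus strand): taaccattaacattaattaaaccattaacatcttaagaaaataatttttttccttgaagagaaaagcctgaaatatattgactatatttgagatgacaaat
Eno −218 bp (chr2L:1727885-1727985, minus strand): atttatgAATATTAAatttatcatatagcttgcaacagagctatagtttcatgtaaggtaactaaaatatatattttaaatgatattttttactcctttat
Ldh −179 bp (chr3L:6262823-6262923, minus strand): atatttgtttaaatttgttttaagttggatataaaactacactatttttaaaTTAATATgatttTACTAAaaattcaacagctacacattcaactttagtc
Pgk 406 bp (chr2L:2748857-2748957, minus strand): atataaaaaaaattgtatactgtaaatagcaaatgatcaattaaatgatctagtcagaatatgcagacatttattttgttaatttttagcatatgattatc
Pglym78 24 bp (chr3R:29148222-29148322, plus strand): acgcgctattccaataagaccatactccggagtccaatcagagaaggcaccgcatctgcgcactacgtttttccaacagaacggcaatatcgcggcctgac

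The first step of the pathway is phosphorylation of glucose by hexokinase, and Hex-A (FBgn0001186; X, 9585675 to 9589813, plus strand) is one of the hexokinase genes. Its strongest summit lay in intergenic sequence at 9585492, −183 bp from its first TSS, and ranked 65 in the pooled list. The ranks in replicates 1 to 4 were 39, 102, 64 and 112, with deposited signals of 1758, 1111, 833.5 and 597.4. All 4 replicates supported this summit, and no other gene had a TSS within 500 bp of it. A second summit at 9583919, −1756 bp, ranked 273 in the pooled list and 274, 248, 367 and 264 in the replicates. That one lay nearer to another gene, −258 bp from the TSS of the non-coding RNA gene lncRNA:CR45541. A summit on the other side, at 9590130, ranked 3758 and lay 317 bp past the end of Hex-A in an exon of lncRNA:CR45542. Hex-A thus had a strong summit at its own promoter and others that fell at neighbouring non-coding genes.

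Phosphoglucose isomerase, which turns glucose phosphate into fructose phosphate, is encoded by Pgi (FBgn0003074; 2R, 8910900 to 8914069, minus strand). Its summit was among the weakest of the thresholded list, at rank 6883, 8914302, −233 bp. The matching summit ranked 5250, 17001, 10947 and 14350 in replicates 1 to 4. Replicates 1 and 2 supported it and replicates 3 and 4 did not. The support of replicate 2 came from a neighbouring peak of rank 7625 that overlaps the thresholded one, not from the matching summit. This promoter is shared with lin, with the pooled summit at −222 bp from the lin TSS. The strongest Pgi summit of each replicate's own list ranked 4956, 7625, 10947 and 10451, at −61, −64, −239 and −3 bp from the Pgi TSS. In replicates 1, 2 and 4 it was thus nearer to Pgi than to lin, and in replicate 3 nearer to lin.

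Phosphofructokinase commits sugar to glycolysis and is the classical control point of the pathway, and Pfk (FBgn0003071; 2R, 10109740 to 10117457, plus strand) encodes it. No summit of the pooled list lay in or within 2 kb of Pfk. The strongest replicate summits in that window ranked 7638, 6860, 11675 and 20632 in replicates 1 to 4. In replicates 1, 2 and 3 these lay 220, 239 and 226 bp past the 3′ end of Pfk, at −17, 2 and −11 bp from the TSS of the next gene, dmpd. Near the second TSS of Pfk, replicate 1 had a summit of rank 23313 (−4 bp) and replicate 4 one of rank 20632 (−46 bp). Replicate 4 had another, of rank 21789, 499 bp downstream of that TSS. Replicates 2 and 3 had no summit within 500 bp of a Pfk TSS. Pfk was therefore not marked at its promoter beyond low-ranked peaks of replicates 1 and 4.

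Triose phosphate isomerase, which interconverts the triose phosphates made by aldolase, is encoded by Tpi (FBgn0086355; 3R, 30132981 to 30134599, minus strand). No list of the 6 had a summit in Tpi or within 2 kb of it. The lists stop at 30000 peaks, so weaker binding could not be detected here.

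Glyceraldehyde-3-phosphate dehydrogenase makes the first NADH of the pathway, and Drosophila has a pair of genes for it. Gapdh2 (FBgn0001092; X, 15868145 to 15869661, plus strand) had the strongest summit of the 10 genes, at 15867989, −156 bp from its first TSS. It ranked 14 in the pooled list with a deposited signal of 7015. In replicates 1 to 4 it ranked 28, 10, 7 and 9, with signals of 1985, 2417, 1296 and 1322. Replicate 1, the one that went into neither joint list, gave the lowest position of the 4, still among its 28 strongest peaks. The summit was intergenic with no other gene's TSS within 500 bp. Further thresholded summits at 15870110 (rank 5471) and 15871033 (rank 7367) lay past the 3′ end of Gapdh2, the first at −73 bp from the TSS of CG16952 and the second in an intron of that gene. Gapdh1 (FBgn0001091; 2R, 7791901 to 7793380, minus strand) had no summit in the pooled list or in replicates 2, 3 and 4. Replicate 1 alone had weak summits past its 3′ end, of rank 19269 and 25747, 350 and 1843 bp beyond the gene.

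Phosphoglycerate kinase makes the first ATP of the payoff phase, and Pgk (FBgn0250906; 2L, 2746880 to 2753068, minus strand) has 5 annotated TSSs spread over most of the gene. It carried 8 thresholded summits, the most of the 10 genes, which had 23 in all. Among all protein-coding genes with at least 1 such summit, the median was 1 and 96 of 6616 genes had 8 or more. All 4 replicates supported all 8 by overlap of intervals, which does not show that each summit was found again. In replicate 2, the summit nearest to 2754922 ranked 10006, and the same summit, of rank 2321, was nearest to both 2752044 and 2752244. The strongest of the 8 lay in an intron at 2748907, between the TSSs at 2749313 and 2748487, and ranked 561 in the pooled list. It was 406 bp downstream of the first of these, the nearer one. The nearest replicate summits ranked 585, 2071, 293 and 454 in replicates 1 to 4, shifted by −79, 91, 3 and −83 bp in genome coordinates. In replicate 2 a stronger summit, rank 1288, lay 109 bp to the other side, so the match there is ambiguous. At the promoter summits of Gapdh2, Hex-A, Eno and Ldh the replicate summits were shifted by −27 to 23 bp.

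Another 3 Pgk summits were promoter summits by the same 500 bp rule, at 2750420 (rank 1166, −273 bp), 2752980 (rank 3052, 88 bp) and 2750626 (rank 3198, 363 bp). The summit at 2752980 lay by the outermost TSS, a promoter shared with Bacc. The other 4 lay more than 500 bp from any Pgk TSS. Those of rank 928 and 2456 were in an intron of Bacc, and those of rank 1367 and 3636 in an intron of Pgk at −401 and −201 bp from a Bacc TSS. The strongest Pgk summit in each replicate's own list ranked 585, 721, 293 and 454, at −341, −286, 403 and −337 bp from whichever Pgk TSS was nearest. That TSS was not the same one, being 2748487 in replicates 1 and 4, 2749313 in replicate 3 and 2750147 in replicate 2. In replicates 1, 3 and 4 the strongest summits lay close together, at 2748828, 2748910 and 2748824. They fell between the TSSs at 2749313 and 2748487, so their sign follows from which TSS was nearer. In replicate 2 the strongest summit was at another site, 2750433, near the pooled summit at 2750420.
Pooled summits were never closer than 199 bp to each other, and 4 of the 28 gaps between neighbouring summits at the glycolysis genes were 199 to 201 bp, against 1749 of 29994 in the whole list. All 4 were in the Pgk window. The 28 gaps are only those inside the windows of the genes, and the 29994 include long gaps outside them, so the shares are not on a like base. Whether such neighbouring summits are separate binding sites was not tested.

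Phosphoglycerate mutase moves the phosphate group along the molecule, and Pglym78 (FBgn0014869; 3R, 29148248 to 29149901, plus strand) encodes it. Its promoter summit was weak, at 29148272 in the 5′ UTR, 24 bp downstream of the first TSS, and ranked 7642. The strongest Pglym78 promoter summit ranked 9147, 6112, 13434 and 5870 in replicates 1 to 4. Replicates 2 and 4 supported the thresholded peak, and the promoter is shared with CG11882. A stronger summit, rank 2536 and supported by all 4 replicates, lay within the 2 kb window by a few bases, 1993 bp past the gene's end. It belongs by position to eIF2D, at −100 bp from its TSS.

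Enolase makes phosphoenolpyruvate, and Eno (FBgn0000579; 2L, 1724768 to 1729636, minus strand) has 3 annotated TSSs. The strong summit was not at the outermost one. It lay in an intron at 1727935, −218 bp from the innermost TSS at 1727717, and ranked 98. Replicates 1 to 4 gave ranks of 107, 105, 101 and 82 and signals of 1231, 1097, 689.8 and 699.8, the replicates being close to each other. By the outermost TSS, at 1729636, the summit ranked only 4408 (−142 bp) and was shared with CG31937, and its replicate ranks were 3324, 4443, 12874 and 5264. The remaining Eno summits, of rank 6373 and 6995, lay past its 3′ end in an intron and in the 5′ UTR of Rim2, the neighbouring gene. Enolase was therefore marked mainly at an internal promoter.

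Lactate dehydrogenase, the enzyme that regenerates NAD+ from pyruvate, is encoded by Ldh (FBgn0001258; 3L, 6259105 to 6262694, minus strand). Its summit lay in intergenic sequence at 6262873, −179 bp from the outermost of 3 TSSs, and ranked 104. The ranks in replicates 1 to 4 were 102, 120, 98 and 101, and the signals were 1253, 1029, 700.8 and 636.1. The 4 replicates supported it, and no other gene's TSS lay within 500 bp. A weak summit at −1921 bp (rank 7546) was supported by replicates 2 and 4.

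**Figure D1:**
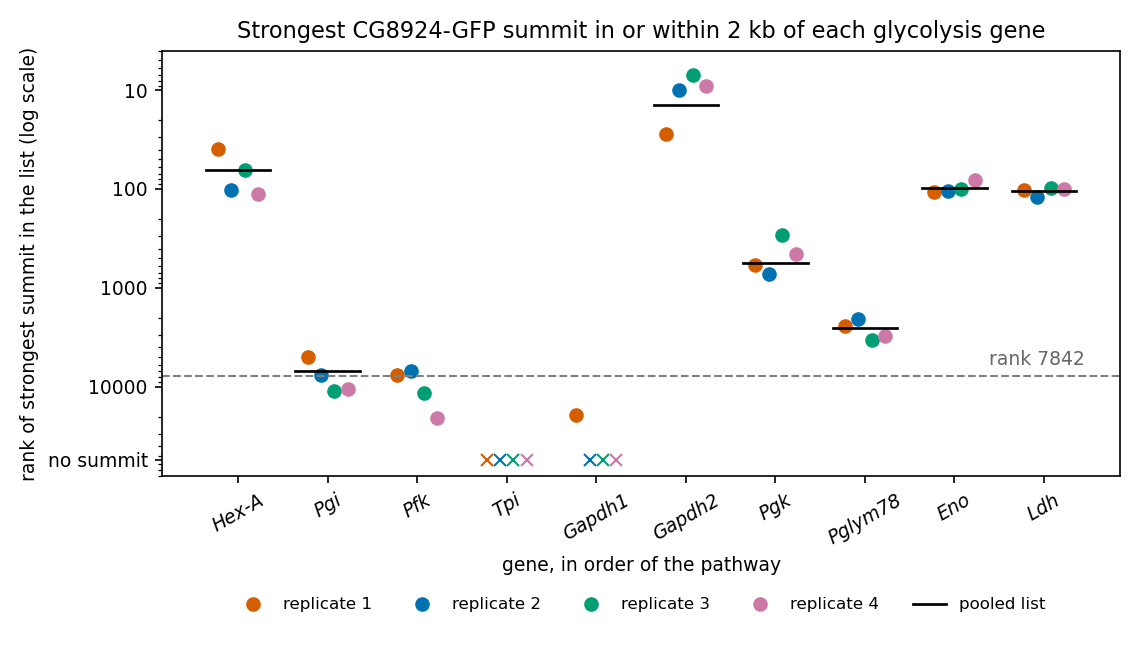
Rank of the strongest summit in or within 2 kb of each gene (vertical axis, log scale, strongest at the top) in the 4 replicate lists (points) and the pooled list (bars); crosses mark lists with no summit, and the dashed line is rank 7842. Gapdh2 lies between ranks 7 and 28, and Hex-A, Eno and Ldh between 39 and 120, while Tpi has no summit in any list.

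**Figure D2:**
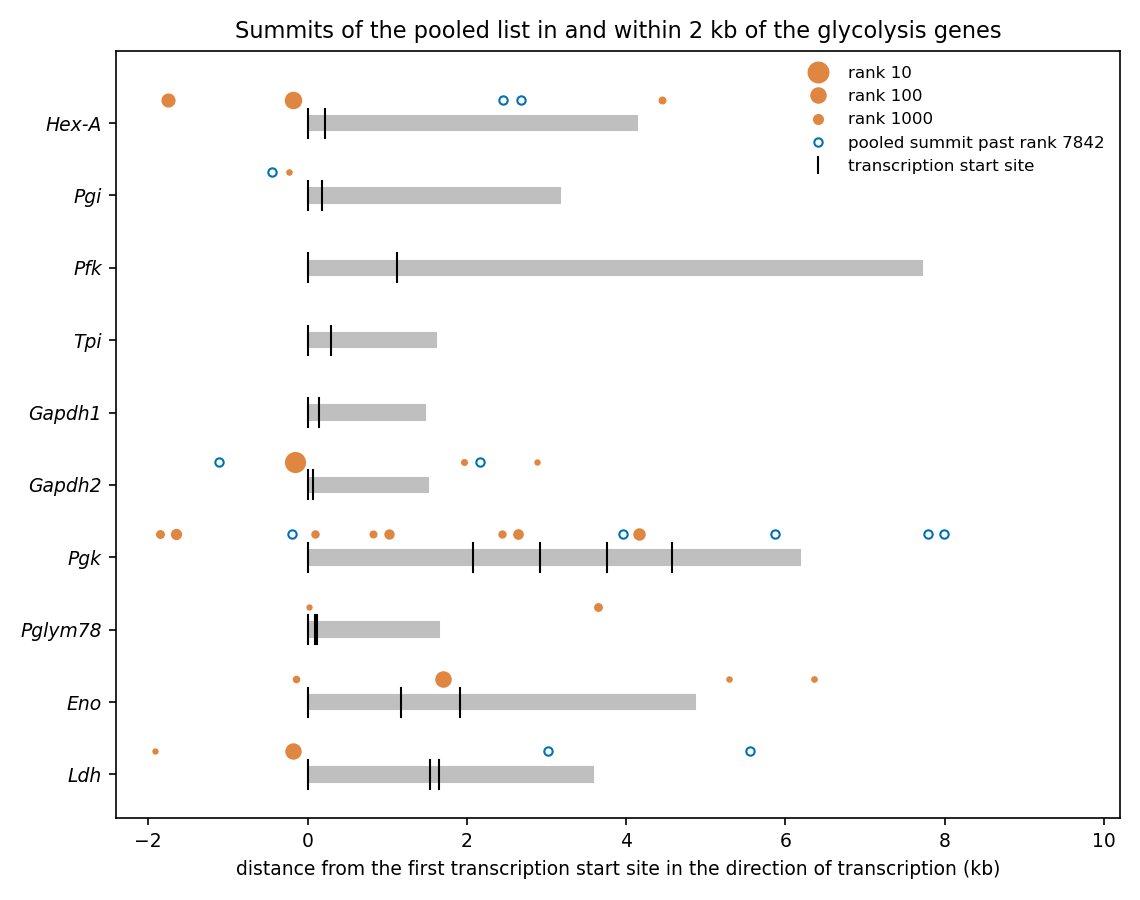
Summits of the pooled list around each gene, by distance from its first TSS in the direction of transcription (kb); grey bars are gene bodies, black ticks TSSs, filled circles thresholded summits with a size that grows with rank, and open circles pooled summits past rank 7842. The large circles of Gapdh2, Hex-A and Ldh lie just upstream of the first TSS, that of Eno inside the gene by its innermost TSS, and Pgk carries 8 filled circles.

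Ordered by the rank of the strongest promoter summit, Gapdh2 came first, with replicate ranks of 7 to 28 that did not overlap those of any other of the 10 genes. Hex-A (39 to 112), Eno (82 to 107) and Ldh (98 to 120) overlapped one another and could not be ordered beyond the replicate spread. Their mean replicate ranks were 79.2 ± 33.9 for Hex-A, 98.8 ± 11.4 for Eno and 105 ± 9.98 for Ldh (SD, n = 4). Pgk followed without overlap at 293 to 721. Pgi (4956 to 10947) and Pglym78 (5870 to 13434) overlapped each other at the bottom. The plot of ranks by gene shows these levels, apart from Pglym78, whose strongest summit in the wider window is the one at eIF2D.

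The members were also read in each replicate's own 7842 highest-signal peaks. In replicate 1, 6 of the 10 genes had a promoter summit (all protein-coding genes 31%), and in replicate 2, 7 did (30.5%). In replicate 3 the count was 5 (31.4%) and in replicate 4 it was 6 (31.2%). Gapdh2, Hex-A, Eno, Ldh and Pgk were found in all 4, while Pgi was found in replicates 1 and 2 and Pglym78 in replicates 2 and 4. These 5 genes are also those whose strongest promoter peak all 4 replicates supported, 5 of 10 against 22% of all protein-coding genes. With the wider window, the strongest peak was supported by all 4 replicates for 6 of the 7 genes, Pgi being the exception. That is 6 of the 10 genes, against 35.5% of all protein-coding genes under the same rule, and with an overlap of at least 50% of each peak the count was 4 in place of 6. The list was built from replicates 2, 3 and 4, so their support for it is not independent.

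Over the 7 genes with a thresholded summit, the median rank of the strongest one was 104 (interquartile range 81.5 to 1548.5), against 2611.5 (1118.75 to 4672) over the 6616 protein-coding genes with one. At promoters the medians were 104 for the 7 genes and 3168 for 4383 genes. In the replicates' own lists, promoter medians for the glycolysis genes with a summit were 346 (n = 8), 120 (n = 7), 101 (n = 7) and 283 (n = 8) in replicates 1 to 4. Those of all protein-coding genes with one were 5962.5, 6291, 5513 and 5857. In or within 2 kb of the gene, the medians for the glycolysis genes were 585 (n = 9), 420.5 (n = 8), 197 (n = 8) and 283 (n = 8). All protein-coding genes with a summit in that wider window had medians of 4501, 4558, 4326 and 4480. Genes with no summit in a list have no rank there and are not in its median. The 8 genes with a promoter summit in replicates 1 and 4 include Pfk. With the wider window, Pfk is in the median of every replicate, and Gapdh1 in that of replicate 1.

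The position of the strong summits was much alike. The distances of Gapdh2 (−156 bp), Ldh (−179 bp), Hex-A (−183 bp) and Eno (−218 bp) all fell inside the interquartile range of the 231 promoter summits among the 5% highest-signal peaks, −240.5 to −108 bp with a median of −165 bp. All 3926 thresholded promoter summits had a median of −77 bp (interquartile range −171 to 24 bp), and 69.4% of them lay upstream of the TSS, against 88.7% of the 231 strongest. The 4 glycolysis genes thus sat where other strong promoter summits sat. The strongest promoter summits of Pgi (−233 bp), Pglym78 (24 bp) and Pgk (406 bp) in the pooled list were more scattered, and for Pgi and Pgk the position differed between replicates, as given above. None of the 4 strong promoters had a TSS of another gene, coding or non-coding, within 500 bp. Counting protein-coding genes alone, 63.2% of the 231 strongest promoter summits had 1 gene only, and 63.7% of all promoter summits did. These shares leave non-coding genes out.

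The same 4 summits were rich in A and T. GC content in the 101 bp was 24.8% at Gapdh2, 22.8% at Hex-A, and 19.8% at both Eno and Ldh, and these low values can be read in the sequences shown above. The median of all 7842 thresholded summits was 32.7% (interquartile range 26.7 to 41.6%), that of the 392 strongest was 26.7%, and that of windows 500 bp to either side was 43.6%. The summits of Pgk at 406 bp (20.8%) and of Pgi (24.8%) were as low, whereas the Pglym78 promoter summit had 52.5%. Low GC was therefore also found at a weak summit, that of Pgi.

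**Figure D3:**
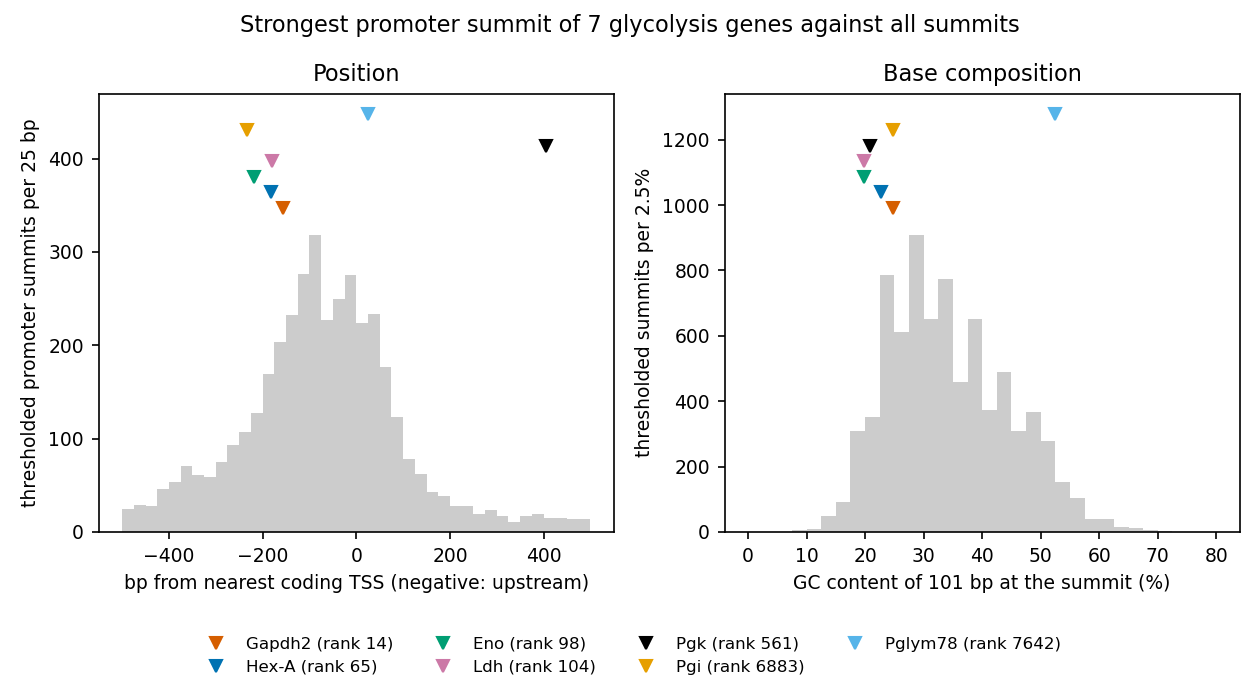
Strongest promoter summit of the 7 genes (triangles, whose height carries no value) against histograms of thresholded summits, by distance from the nearest TSS (left, bp) and by GC content of 101 bp (right, %). The left histogram holds the 3926 promoter summits and the right one all 7842. Gapdh2, Hex-A, Eno and Ldh lie from −218 to −156 bp and from 19.8 to 24.8% GC, and Pglym78 lies at 52.5% GC.

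Sequence words were searched on both strands. Among words of 6 bases present in at least 5% of summits, the 5 with the largest ratio between summits away from the glycolysis genes and windows 500 bp to either side were ATATTA (20.9% of summits and 7.97% of flanking windows, a ratio of 2.62), ATACTA (ratio 2.56), TATTAA (ratio 2.49), AATATT (ratio 2.48) and TACTAA (ratio 2.34). They overlap one another and share the A and T content of the summits. At least 1 of the 5 was in 43% of all thresholded summits and in 9 of the 23 at the glycolysis genes. The capitals in the sequences show them at Ldh, which holds TTAATAT and TACTAA, and at Eno, which holds AATATTAA. Gapdh2 and Hex-A held none of the 5 within 50 bp of the promoter summit. In a window of 301 bp the Hex-A promoter summit held ATATTA and TATTAA, and at least 1 of the 5 was in 16 of the 23 summits, against 70.4% of all thresholded summits.

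Of a list of 10 motifs, TATAAA was in 22.8% of all summits and in 5 of the 23 at glycolysis genes, among them those of Gapdh2 and Ldh shown above. GAGAG was in 11.3% of all summits and 1 of the 23, and CACACA in 8.91% and 2 of the 23. ACGTG was in 6.68% and 2, and TATCGATA in 2.03% and 1, the summit between Gapdh2 and CG16952. CACGTG (0.816% of all summits), TCAGTT (6.53%), AAGGTCA (0.612%), GGTCACAC (1.67%) and CAGCTG (4.08%) were in none of the 23. In the window of 301 bp, TCAGTT was in 4 of the 23 (18.4% of all summits) and CAGCTG in 5 (14.6%), while the other 3 were again in none. CACGTG holds ACGTG, and TATCGATA is its own reverse complement. AAGGTCA resembles the site bound by nuclear receptors such as ERR; no match says only that these letters are not in these windows.

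Paralogs were compared at their own promoters, replicate by replicate. Gapdh2 ranked 28, 10, 7 and 9 in replicates 1 to 4, and Gapdh1 had no promoter summit in any. Hex-A ranked 39, 102, 64 and 112, and Hex-C, another hexokinase gene, had none. Pglym78 ranked 9147, 6112, 13434 and 5870, and Pglym87 had none. In each of these pairs, only the first gene had a promoter summit, in all 4 replicates.

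Pgk ranked 585, 721, 293 and 454, and CG9961, a Pgk-like gene, ranked 13368, 28708, 12195 and 22300 at a promoter it shares with Cwc25. The difference in rank, second gene minus first, averaged 29987.5 ± 9.75 for Gapdh1 minus Gapdh2 and 29921.8 ± 33.9 for Hex-C minus Hex-A (SD, n = 4 lists). It averaged 21360.2 ± 3526 for Pglym87 minus Pglym78 and 18629.5 ± 7689 for CG9961 minus Pgk, a gene without a summit taking the rank after the last. For the pairs of Gapdh1, Hex-C and Pglym87 the size and spread are therefore set by the length of the lists and the rank of the first gene alone, and each difference is a lower bound. The first gene was stronger in 4 of 4 lists in each of the 4 pairs. The two-sided exact sign-flip permutation test gave p = 0.125 for each pair (adjusted p = 0.125 over the 4 pairs), the smallest value that 4 lists allow, so the test could not pass 0.05.

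The hexokinase comparison depended on the window. In or within 2 kb of the gene, Hex-C took a summit that ranked 57 in the pooled list and 54, 61, 65 and 49 in the replicates. That summit lay 1082 bp past the 3′ end of Hex-C and at −138 bp from the TSS of mRpL41. With this wider window Hex-C minus Hex-A averaged −22 in rank, with exact permutation p = 0.5. Hex-A still ranked ahead in replicates 1 and 3 and Hex-C in replicates 2 and 4, so no order of the pair was shown with that window. At their own promoters Hex-A ranked ahead in all 4 replicates.

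**Figure D4:**
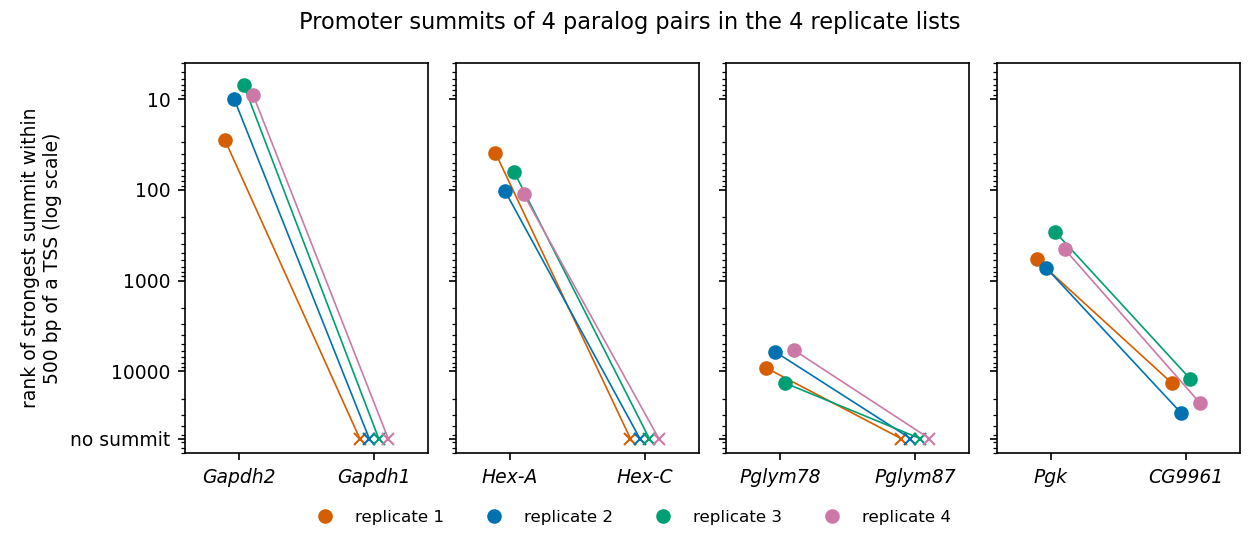
Rank of the strongest summit within 500 bp of a TSS (vertical axis, log scale, strongest at the top) for 4 pairs of paralogs in the 4 replicate lists, joined by replicate; crosses mark no summit. In each pair all 4 replicates place the first gene higher, with Gapdh1, Hex-C and Pglym87 without a promoter summit in any list.

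Other glycolysis genes and neighbouring pathways were read from fixed lists, beside the 31.4% of all protein-coding genes with a thresholded promoter summit. Of 12 further glycolysis genes, 1 had one, PyK, the pyruvate kinase gene, at rank 2599 (replicate ranks 2224, 3369, 3656 and 3490). Ald1, the aldolase gene, had no pooled summit in the window. Replicate 1 had an Ald1 promoter summit of rank 15087 and replicate 2 one of rank 28630, and replicates 3 and 4 had none. Pfk, Ald1 and Tpi, which catalyse consecutive steps, thus had no pooled promoter summit, which 49.8% of all protein-coding genes had.

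Around the pathway, gluconeogenesis had a promoter summit at 2 of 4 genes, PCB (pyruvate carboxylase, rank 421) and fbp (fructose bisphosphatase, rank 1054). The pentose phosphate pathway had 4 of 7, among them CG8036 (transketolase, rank 117), Taldo (transaldolase, rank 4822) and Pgls (phosphogluconolactonase, rank 6378). Glycogen and trehalose metabolism had 5 of 7, led by Glyp (glycogen phosphorylase, rank 131), Pgm1 (phosphoglucomutase, rank 1597) and Treh (trehalase, rank 2483). CG8036 and Glyp thus came close behind Eno and Ldh in pooled rank.

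After pyruvate, 4 of 7 genes for its entry to mitochondria had a promoter summit, the strongest being Pdp (pyruvate dehydrogenase phosphatase, rank 2440), Pdhb (a pyruvate dehydrogenase subunit, rank 2615) and Mpc1 (a mitochondrial pyruvate carrier subunit, rank 3459). The TCA cycle had 7 of 18, led by Idh3g (an isocitrate dehydrogenase subunit, rank 148), Fum1 (fumarase, rank 523) and SdhC (a succinate dehydrogenase subunit, rank 4262). The glycerol phosphate shuttle had 1 of 2, Gpdh1 (glycerol phosphate dehydrogenase, rank 1887). Of 11 regulators of sugar metabolism 9 had one, led by cbt (cabut, a transcription factor of the sugar response, rank 126), ERR (rank 1406) and bigmax (the partner of the sugar sensor Mondo, rank 1557). Over the 8 lists together, 33 of 68 genes had a promoter summit. These lists share the limit of the members, being chosen with results known, and no difference between lists was tested.

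**Figure D5:**
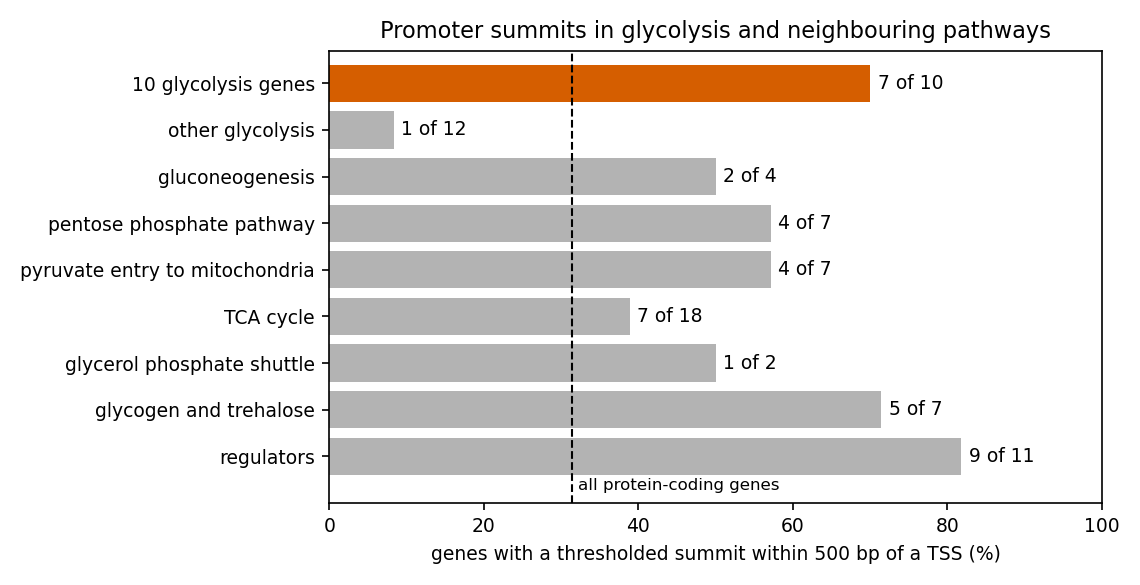
Share of genes with a thresholded summit within 500 bp of a TSS (%), for the 10 glycolysis genes (orange) and 8 neighbouring lists (grey), with the counts beside the bars; the dashed line is the share of all protein-coding genes. The glycolysis genes stand at 7 of 10, the other glycolysis genes at 1 of 12 and the regulators at 9 of 11.

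No peak list of embryos without the tagged protein, or with another tagged protein, was analysed here, so how far these signals are particular to CG8924 was not tested.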

How the data were processed

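CG8924-GFP was measured by ChIP-seq in 4 biological replicates of embryos. Per the deposited notes, the authors called peaks for each replicate and on the pooled reads of replicates 2, 3 and 4 against the same control, and selected the thresholded list for reproducibility. The aligner, the peak caller and the read depth are not stated (not given in the sources used here), so no interval that needs depth is printed. The deposited signal value is the authors' value for each peak on the scale of its own list. With the peak caller not stated, it may be a score particular to that caller. The deposited −log10 q-value was used only for an alternative ranking; the largest q-value per full list was 0.276 to 0.376, so these lists include weak peaks. Coordinates are dm6 per the labels, and 0 peaks ran past an arm end of the Release 6 genome.

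Summits were assigned to genes of Ensembl release 115 (18164 genes, 23584 distinct TSSs), with a promoter window of 500 bp and a wider window of 2 kb. A replicate summit was matched to a pooled one within 150 bp, a distance chosen after the data were seen. The members and lists were chosen with earlier results of these data known. Genes named are the members, their paralogs, genes sharing a member's promoter, neighbours whose TSS is nearest to a member's summit, named after their positions were seen, and up to 3 per list by rank. Entries of the lists that name the same gene were merged. Paralogs were compared by a two-sided exact sign-flip permutation test over 4 lists with Benjamini-Hochberg adjustment. Assignment and overlap steps were checked on simulated data. Python 3.11.15, NumPy 2.4.6, pandas 2.3.3, SciPy 1.17.1 and matplotlib 3.10.9 were used.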

Additional observations from a re-analysis of the deposited data

Results flagged for a closer look

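In 37 sets of 4 replicate ranks, 6 had 1 replicate far from the other 3. The cutoff flags about 1 set in 20 by chance for independent, normally distributed values. These sets hold ranks and share values, so the rate by chance is not known here. Of the 6 sets, 3 are the same value, the Gapdh2 promoter summit (also the gene's strongest in either window), which ranked 28 in replicate 1 and 7 to 10 in the others. The Gapdh2 summit at 15871033, in an intron of CG16952, ranked 19680 in replicate 1, against 5636, 4658 and 5182 in replicates 2, 3 and 4. At Pgk, the summit at 2748907 ranked 2071 in replicate 2, against 585, 293 and 454 in replicates 1, 3 and 4, with the matched replicate 2 summit 91 bp away. Replicate 2 also had a stronger summit, rank 1288, within the matching distance, and with that one the set no longer stands apart. The Pgk summit at 2754922, in an intron of Bacc, ranked 10006 in replicate 2, against 1562, 2887 and 2832 in replicates 1, 3 and 4.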

How the results depend on the processing

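Counting only summits inside the gene lowered the glycolysis genes with a nearby peak from 7 to 3 and moved their median rank from 104 to 561, the promoter summits of Hex-A, Pgi, Gapdh2 and Ldh being outside the gene. Requiring support by the other 3 replicates, with each replicate left out in turn, gave 6 genes with a nearby peak in every case and 5 with a promoter peak, and 6 genes with full support. The median of mean ranks was 100.33 to 107.67. These are the values of 1 gene, Ldh, the middle one of the 7, and do not show how far the others moved. The mean rank of Pgi, for example, was 7677.3 to 9674.3. The paralog difference ranged over 29985.3 to 29992.3 for Gapdh1 minus Gapdh2, 29908.3 to 29932.7 for Hex-C minus Hex-A, 20436.7 to 22958 for Pglym87 minus Pglym78 and 15510.3 to 20872 for CG9961 minus Pgk. The ranges of the pairs of Gapdh1, Hex-C and Pglym87, which have no promoter summit, follow from the length of the lists and show no stability. Within the gene or 2 kb, Hex-C minus Hex-A was −22.0, with 2 replicates each way, where Hex-C took the summit at mRpL41. A 200 bp promoter window gave 0 other glycolysis and 0 gluconeogenesis genes, and a 1000 bp window gave 2 other glycolysis genes. The pooled list gave 2 other glycolysis, 4 gluconeogenesis, 14 TCA cycle and 2 glycerol phosphate shuttle genes. The stronger 50% of the thresholded list gave 1 pentose phosphate, 2 TCA cycle and 3 glycogen and trehalose genes. The other alternatives tried left these counts within 1.5 times, among them full support at 4 of the genes with overlap of 50% of both peaks, 6 regulators in the stronger 50% of the list and 6 pyruvate entry genes in the pooled list. Taking the strongest replicate summit in place of the nearest, a choice added after the data were seen, changed the Pgk summit at 2748907 in replicate 2 to rank 1288 and the one at 2750626 in replicate 1 to rank 1689. With 1 group, no comparison between conditions was possible, and the only pairing was that of paralogs within each replicate list. Without read depth, ranks past the thresholded list are the least certain.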
